A study of Homo sapiens with 8 samples.

Results

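The guides described here target 32 nuclear genes whose products build the mitochondrial ribosome, run mitochondrial translation, import and process mitochondrial proteins, maintain mitochondrial DNA and RNA, or divide the organelle. The genes were picked by symbol, and genes that the table types as non-essential controls were left out. They account for 944 of the 46829 guides in the table, for 129 of 6735 splice junctions and for 32 of 1250 genes. They divide into 13 mitoribosomal proteins with an MRPL symbol, 8 more that have an MRPS symbol or are DAP3, 2 translation factors (GFM1 and MTIF2), 5 import and processing proteins (TOMM22, TIMM29, GRPEL1, PMPCA and PMPCB), 3 proteins of mitochondrial DNA and RNA (TFAM, TWNK and LRPPRC) and the fission GTPase DNM1L. MRPL symbols stand for proteins of the large subunit and most MRPS symbols for the small one, but MRPS30 and MRPS18A are large-subunit proteins. The table types 11 of the 32 as essential in the Cas13 screen and 21 as not essential. How that type was assigned is not given in the sources used here, and it may rest on the same values.

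The screen used A375, a human melanoma line, as a single monoclonal line of genotype TetO-RfxCas13d, in which doxycycline switches on the RNA-cutting nuclease RfxCas13d. Pooled lentiviral guides, each aimed at an exon-exon junction of a transcript, were counted in genomic DNA on Day 0 without treatment and on Days 7, 14 and 21 in 1 ug/ml doxycycline, with 2 replicates a day and 8 libraries in all. Each value is a log2 fold change (log2 FC) of a guide against Day 0 in the replicate it comes from. A negative value means that cells carrying the guide had become rarer in the pool, which is how such a screen asks whether a gene is needed for growth. The labels do not say whether the replicates were separate cultures, so the p-values rest only on spread between these samples, which may be technical. The test used, limma, draws that spread partly or wholly from all genes, junctions or guides together.

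Mitochondria keep a small genome of their own that encodes core subunits of the respiratory chain. A dedicated ribosome inside the organelle translates those messages, while all proteins of that ribosome, and nearly every other mitochondrial protein, are made in the cytosol and enter through the TOM complex of the outer membrane and the TIM complexes of the inner membrane. Presequences are then removed by the matrix processing peptidase, whose subunits are PMPCA and PMPCB. Guides against these genes reach the nuclear-encoded messenger RNA, not the mitochondrial genome.

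Values are the guides' mean per gene, for the 31 genes with at least 3 guides. TFAM, the factor that packages mitochondrial DNA, had 1 guide and was not tested; that guide stood at a log2 FC of 1.88 in replicate 1 and 0.25 in replicate 2 at Day 21. The table gives no read numbers, but its fold changes are logs of ratios of whole numbers times a constant of each library. The smallest Day 0 number that fits these ratios, a lower bound that includes any pseudocount, had a median over the 944 guides of 88 in replicate 1 and 121.5 in replicate 2, against 92 and 125 over all guides. It was at least 50 in both replicates for 783 of the 944.

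Guides against most of these genes showed no loss that passed the test in 21 days of Cas13d expression. At Day 21 only 2 of the 31 tested genes, TOMM22 and LRPPRC, had fallen below 0 at an adjusted p under 0.05 (limma, two-sided, Benjamini-Hochberg over all 1223 genes tested), and 0 had risen. Over all genes tested 20.8% were called lower and 0.654% higher. Among the 394 tested non-essential control genes 20 were called lower, or 5.08%, and 7 higher, beside 6.45% of the 31 called lower. At an unadjusted p under 0.05 limma gave 3 member genes lower and 1 higher, beside 37.6% of all genes in either direction. The median of the 31 gene values was -0.20 in replicate 1 and -0.01 in replicate 2, beside -0.37 and -0.28 over all genes and -0.48 and -0.37 over the 829 tested genes that carry a knockout score. Of the 31 genes 15 lay below 0 in both replicates, or 48.4%, compared with 61.3% of all genes tested, while 7 lay above 0 in both and 9 had opposite signs. The 95% confidence interval of the Day 21 value stayed above a log2 FC of -1 for 25 of the 31. The 6 genes whose interval reached -1 were TOMM22, LRPPRC, TWNK, MRPL18, MRPS30 and MRPL54.

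The days and replicates weigh on this count. Each day was tested alone because the days of a replicate share a Day 0 library. In earlier work on these data, which is not shown here, a spread shared over days gave too many small p-values. Calls from fits of all days, here and below, carry that limit. With all days in 1 model and the replicate number as a block, limma called 10 of the 31 genes at Day 21, of which 7 were lower and 3 higher, but over all genes its share of calls also went up, to 51.1%. With the median over a gene's guides in place of the mean, 0 of the 31 passed, 3 had an unadjusted p under 0.05, and the share over all genes was 2.04%.

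Among the import and processing genes TOMM22 stood apart. TOMM22 encodes the receptor subunit that links the presequence receptors of the TOM complex to its pore. Its 19 guides averaged -0.51 and -0.54 at Day 7 in replicates 1 and 2, -1.52 and -2.75 at Day 14, and -2.52 and -2.95 at Day 21. Both replicates were therefore already below 0 in the first week and went on falling. The Day 21 mean was -2.73 (SE 0.18, limma adjusted p 0.0107), which leaves 15.1% of the Day 0 abundance, and the next lowest of the 31 genes was at -0.86. With the median over guides the value was -2.08 and the adjusted p 0.0788.

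The other import genes did not pass the test at Day 21. PMPCA stood at -0.20 and -0.27 in the replicates and PMPCB at -0.36 and -0.10, with limma adjusted p-values of 0.334 and 0.389. GRPEL1, the nucleotide exchange factor of the matrix Hsp70 import motor, had values of opposite sign, -0.53 and 0.16. TIMM29, a subunit of the TIM22 carrier translocase, had the highest Day 21 mean of the 31 genes, 0.52, from 0.32 and 0.72 (SE 0.18, limma adjusted p 0.138). TIMM29 was called higher by limma with all days in 1 fit, at an adjusted p of 0.0360, and with the replicate block, at 0.00624.

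LRPPRC, which binds and stabilises mitochondrial messenger RNAs, was the other gene that fell. Its 52 guides averaged -0.07 and -0.18 at Day 7, -0.73 and -0.62 at Day 14 and -0.90 and -0.81 at Day 21. Replicate 1 and replicate 2 were close to each other at Day 14 and Day 21, and both were below 0 on every day. The Day 21 mean of -0.86 (SE 0.14, limma adjusted p 0.0371) leaves 55.3% of the Day 0 abundance. LRPPRC was no longer called when each library was centred on the median of all guides (-0.55, adjusted p 0.106) or when the median over guides was used (-0.58, adjusted p 0.154).

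TWNK, the helicase of the mitochondrial replication fork, was called only in the second week. Its 8 guides averaged -0.44 and -0.23 at Day 7, -0.74 and -0.99 at Day 14 and -0.41 and -0.90 at Day 21. The limma adjusted p was 0.0232 at Day 14 and 0.105 at Day 21. The test of the step from Day 7 to Day 21 gave a log2 difference of -0.32 (SE 0.24, limma adjusted p 0.372). TWNK was called lower at Day 21 by limma with all days in 1 fit, at an adjusted p of 0.0212, and with the replicate block, at 0.0110.

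Over time, 0 of the 31 genes were called at Day 7, beside 4.01% of all genes in either direction. Limma's unadjusted p was under 0.05 for 2 of the 31, TOMM22 and TWNK, beside 172 of all 1223 genes. At Day 14 there were 3 genes called lower and 0 higher, TOMM22, LRPPRC and TWNK, beside 22.1% of all genes lower and 0.736% higher. Limma gave 4 lower and 0 higher at an unadjusted p under 0.05. The share over all genes at that p is not given for Day 14. Of the 394 tested control genes 26 were called lower at Day 14, or 6.60%, and 7 higher, beside 9.68% of the 31 called lower. The change from Day 7 to Day 21, in which Day 0 cancels, was called for 2 of the 31, both downward, beside 23.5% of all genes called lower and 1.23% called higher. Among the 394 tested control genes 38 were called lower for this change, or 9.64%, and 13 higher, beside 6.45% of the 31 called lower. The change was -2.21 for TOMM22 (SE 0.22, limma adjusted p 2.3e-05) and -0.73 for LRPPRC (SE 0.22, limma adjusted p 0.0270). Without replicate 1 or replicate 2 at Day 21 the change was -2.42 or -1.99 for TOMM22 (limma adjusted p 0.0598 and 0.0637) and -0.68 or -0.77 for LRPPRC (limma adjusted p 0.0823 and 0.0546), from a fit of all days that gives the lone library the spread of the others. At Day 14 only TOMM22 stayed called without either replicate, and likewise with libraries centred on all guides or with the median over guides.

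Of the 21 mitoribosome genes none passed the test. Limma called 0 of them at Day 7, 14 or 21. Over all genes tested 4.01% were called at Day 7 in either direction, and 22.1% and 20.8% were called lower at Days 14 and 21. Of the tested non-essential control genes 5.08% were called lower at Day 21. An unadjusted p under 0.05 from limma was found for 0 mitoribosome genes at Day 7, 1 at Day 14 (lower) and 1 at Day 21 (MRPL17, higher). Over all 1223 genes it was found for 172 at Day 7 and 460 at Day 21, in either direction. The median of the 21 gene values at Day 21 was -0.16 in replicate 1 and 0.02 in replicate 2, 7 genes lay below 0 in both replicates, and the 95% interval stayed above -1 for 18. The cytosolic ribosome in the same libraries gave 35 of 43 tested genes called lower, with medians of -2.45 and -2.80. The 5 respiratory chain genes of the table (COX5A, COX6C, NDUFB10, UQCR10 and UQCRC1), whose complexes depend on mitochondrial translation, gave 0 of 5 called by limma and 1 lower at an unadjusted p under 0.05. The difference between these lists was not tested.

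Among the genes with an MRPL symbol, MRPL18, a protein that also carries 5S ribosomal RNA into mitochondria, had the lowest value. Its 8 guides averaged -0.12 and -0.20 at Day 7, -0.35 and -0.38 at Day 14 and -1.01 and -0.29 at Day 21. Both replicates were below 0 throughout, but at Day 21 they stood far apart, and the mean of -0.65 had an SE of 0.24 and a limma adjusted p of 0.156. MRPL39 was at -0.35 and -0.52 (mean -0.44, limma adjusted p 0.138) and MRPL54 at -0.67 and -0.01 (mean -0.34, adjusted p 0.386 from limma). MRPL40, MRPL42, MRPL10, MRPL47, MRPL21 and MRPL44 had means between -0.20 and -0.12. MRPL23, MRPL49 and MRPL34 had means of 0.02, 0.15 and 0.30. At the upper end the 6 guides of MRPL17 averaged 0.38 and -0.32 at Day 7, 0.49 and 0.18 at Day 14 and 0.61 and 0.34 at Day 21. The MRPL17 mean of 0.48 (SE 0.16) had a limma adjusted p of 0.131. The replicate block put MRPL18, MRPL39 and MRPL54 among the lower calls and MRPL17 among the higher ones, with limma adjusted p-values of 0.0189, 0.00996, 0.0470 and 0.0172. MRPL18 and MRPL39 were also called with all days in 1 fit and no block, at limma adjusted p-values of 0.0355 and 0.0250.

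Among DAP3 and the genes with an MRPS symbol, MRPS30 was lowest, and its replicates went against each other. MRPS30 encodes a protein of the large subunit despite its symbol. Its 16 guides averaged -0.18 and 0.18 at Day 7, -0.70 and 0.11 at Day 14 and -1.24 and 0.07 at Day 21 (mean -0.58, SE 0.38, limma adjusted p 0.367). Replicate 1 was low and replicate 2 was near 0 on the last day. MRPS12, part of the decoding centre, stood at -0.15 and -0.26, and MRPS10 at -0.19 and -0.07. DAP3, the GTP-binding protein of the subunit head that was first described in cell death, stood at -0.04 and 0.14 with 47 guides, and its 95% interval ran from -0.40 to 0.50. MRPS21, MRPS18B and MRPS18A had means of 0.03, 0.08 and 0.24. MRPS18C was highest, at 0.20 and 0.52 (mean 0.36, SE 0.17, limma adjusted p 0.228), so the 3 MRPS18 paralogs in the screen, which occupy different places in the mitoribosome, all had means above 0. With the block MRPS30 was called lower and MRPS18C higher, at limma adjusted p-values of 0.0320 and 0.0248.

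The 2 translation factors had many guides and small values. GFM1, the elongation factor that moves the mitoribosome along the message, stood at 0.05 and -0.06 at Day 7, -0.24 and -0.08 at Day 14 and -0.30 and -0.23 at Day 21 over 101 guides (mean -0.26, SE 0.14, limma adjusted p 0.288). MTIF2, the initiation factor that brings the first transfer RNA, stood at -0.16 and -0.01 at Day 21 over 69 guides (mean -0.09, SE 0.15, limma adjusted p 0.732). DNM1L, the dynamin that constricts and divides mitochondria, stood at -0.50 and -0.09 over 102 guides (mean -0.30, SE 0.18, limma adjusted p 0.334). The 95% intervals of these 3 genes stayed above -1.

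Further genes of mitochondrial translation, import and quality control were taken from a separate list, of which 21 were in the table with 837 guides. At Day 21 limma called 2 of the 21 lower, or 9.52%, and 0 higher, beside 20.8% of all genes called lower and 0.654% called higher. At an unadjusted p under 0.05 limma gave 4 lower, beside 37.6% of all genes in either direction. The genes called were HSPD1, the matrix chaperonin that folds imported proteins, at -2.32 and -2.31 over 24 guides (adjusted p 0.0107), and SUPV3L1, the helicase of the mitochondrial RNA degradosome, at -0.94 and -0.88 over 94 guides (adjusted p 0.0318). HSPD1 was called at Day 7 too, at a limma adjusted p of 0.0475. NSUN4, which methylates mitochondrial ribosomal RNA, and the matrix protease LONP1 had means of -0.65 and -0.63 and limma adjusted p-values of 0.0728 and 0.0665. The mitochondrial transfer RNA synthetases RARS2, NARS2, LARS2, CARS2, WARS2 and YARS2 had means between -0.25 and 0.30, and limma called none of them at Day 21.

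The table also carries a gene score from a Cas9 knockout library, named GeCKO in its header and repeated on every guide of a gene. Its scale and sign are not given in the sources used here. Over the 32 genes its median was -1.07, near the -1.12 of all scored genes. Across the 31 tested genes the score and the Day 21 mean had a Pearson r of 0.36 and a Spearman rho of 0.41, and without TOMM22 0.31 and 0.37. These are descriptions across genes, which are not independent replicates. MRPL18 had the lowest score of the 32, -1.57, and ranked 4 from the bottom by Day 21 mean. PMPCA and MRPS21 followed in score, at -1.47 and -1.42, while their Day 21 means were -0.24 and 0.03. LRPPRC ran the other way, with a score of -0.96 that ranked 26 of the 32 and a Day 21 mean that ranked 2 from the bottom. Between replicates, the 31 Day 21 gene values had an r of 0.75, which dropped to 0.41 without TOMM22.

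Each gene was targeted at 1 to 14 junctions, mostly with 8 guides a junction, so the loss could be located along the transcript. Of the 124 member junctions with at least 3 guides, 11 were called lower at Day 21 and 0 higher (limma, adjusted over all 6401 junctions), beside 25.3% of all junctions called lower and 0.937% called higher. The 11 are 8.87% of the 124. Of the 615 tested junctions of non-essential control genes 56 were called lower, or 9.11%, and 24 higher. The 11 lay in 8 genes: 3 in LRPPRC, 2 in TOMM22 and 1 each in DNM1L, GFM1, MRPL39, MRPS10, PMPCA and PMPCB. Limma gave each of the 11 the same SE at Day 21, 0.36, a spread pooled over all junctions. Their p-values against 0 therefore do not measure how well a junction's own replicates agree. All 129 junctions lie inside the span of their gene in RefSeq, and the coordinates below are those of the table, on hg38 by the submitters' processing notes, from the start to the end of the intron that the junction removes. With the replicate block 31 junctions were called, 25 lower and 6 higher, beside 44.1% of all junctions. With the median over guides 5 were called, of which 4 are among the 11, beside 18.9% of all junctions.

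TOMM22 lies at chr22:38681957-38685421, read from the plus strand. Its loss was concentrated at the third of 3 junctions. That junction, chr22:38682996-38683766, averaged -1.05 and -1.15 at Day 7, -3.08 and -5.61 at Day 14 and -4.61 and -5.56 at Day 21 over 8 guides (mean -5.09, SE 0.36). The first junction, chr22:38682095-38682322, averaged -1.32 and -1.44 at Day 21. The middle one, chr22:38682441-38682878, had 3 guides and averaged -0.12 and 0.00. Set against the mean of the other junctions of the gene, the third junction was lower by a log2 difference of -4.37 (SE 0.36), with values of -3.89 and -4.85 in the replicates. The 2 other junctions were higher than their rest by 1.20 and 3.17, as they must be in part, since each is compared with a mean that holds the third. Without the third junction the remaining 11 guides averaged -0.99 and -1.04, given as a description with no test.

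The guides of that TOMM22 junction were low together. At Day 21 the lowest value among its 8 guides was -6.72 within replicate 1 and -7.39 within replicate 2, from different guides. The highest value was -3.07 within replicate 1 and -1.45 within replicate 2. Every one of the 8 guides was therefore below 0 in both, and 7 of the 8 were called individually. Guide 7 had the lowest mean of all 944, at -6.26 and -6.99, from implied Day 0 numbers of 80 and 116 to 1 and 1 at Day 21, the lowest number the ratios allow. At the first junction the 8 guides were split: guide 2 stood at -3.29 and -3.76 and guide 8 at -1.41 and -7.42, while guide 1 stood at 1.17 and 1.25, the highest mean of the gene.

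LRPPRC lies at chr2:43886224-43996265, read from the minus strand, and its 7 targeted junctions all lay between 43963706 and 43979825, in the part of the gene nearer its start. Counted from the 5' end of the transcript, the first and second averaged -0.33 and -0.18, and 0.20 and -0.06, at Day 21. The third, chr2:43976229-43976993, averaged -1.86 and -2.17, and the fourth, chr2:43975217-43976142, averaged -2.78 and -1.65. The fifth, chr2:43974758-43975090, was weaker at -1.09 and -0.75, and the last 2 averaged 0.00 and -0.23, and 0.00 and -0.46. The loss was thus carried by adjacent junctions in the middle of the targeted stretch, which lie on either side of a shared exon. Against the rest of the gene the third and the fourth junction were lower by -1.40 and -1.64 (limma adjusted p 0.0015 and 0.00023). The second was higher than its rest by 1.03 (limma adjusted p 0.0246), as it must be in part, since that mean holds the third and the fourth. Against 0 the second junction had a mean of 0.07 and a limma adjusted p of 0.941. Without the third and the fourth junction the other 36 guides of LRPPRC averaged -0.27 and -0.32.

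Within the 2 low junctions of LRPPRC the guides were uneven. Guides 2 and 3 of the third junction stood at -5.29 and -5.36, and at -5.55 and -6.29, while its guide 7 stood at 1.23 and -0.12. In the fourth junction guides 1, 2 and 3 stood at -4.45 and -6.40, -3.53 and -3.12, and -4.52 and -4.45, while guide 6 stood at -0.25 and 1.79. Guides of a junction share its target region, so they are not independent measurements.

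In all, 8 of 109 member junctions differed from the rest of their gene at Day 21, 5 lower and 3 higher, in 4 of 24 genes with more than 1 tested junction (limma, adjusted p under 0.05). The 3 higher ones lay in TOMM22 and LRPPRC, where the mean they are compared with holds the low junctions. Over all genes 12.8% of such comparisons were called lower and 11% higher, or 23.8% in either direction. Beyond TOMM22 and LRPPRC, the eleventh of the 13 junctions of DNM1L, chr12:32740240-32740408, averaged -0.44 and -0.60 at Day 7, -1.66 and -1.40 at Day 14 and -1.66 and -1.36 at Day 21. It was lower than the rest of the gene by -1.32 (SE 0.36, limma adjusted p 0.0030), and the other 12 junctions of DNM1L together averaged -0.41 and 0.02. In MRPS10 the fifth of 6 junctions, chr6:42208947-42210487, averaged -1.33 and -0.58, lower than its rest by -0.99 (SE 0.36, limma adjusted p 0.0322). The other 5 MRPS10 junctions averaged 0.04 and 0.04.

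These within-gene differences depend on single guides and on 1 replicate to different degrees. With the median over a junction's guides, 2 of the 8 stayed called, both in TOMM22, and with guides of an implied Day 0 number of at least 50 in both replicates 5 of the 8 stayed. The MRPS10 junction was not called without replicate 1 (-0.61, limma adjusted p 0.131), and the first TOMM22 junction lost its call without replicate 1 or without replicate 2. The replicate block called 32 of the 109, 17 lower and 15 higher, beside 47.2% over all genes.

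The other 5 called junctions were not called against the rest of their gene. One was the fifth LRPPRC junction, at a difference of -0.13 (limma adjusted p 0.859). The others were the thirteenth of 14 in GFM1, chr3:158690323-158691138, at -1.37 and -0.63; the sixth of 7 in MRPL39, chr21:25592965-25593892, at -1.29 and -0.94; the second of 9 in PMPCA, chr9:136412199-136412489, at -1.28 and -0.61; and the second of 9 in PMPCB, chr7:103298708-103299442, at -1.28 and -0.61. Their limma adjusted p-values against 0 lay between 0.0088 and 0.0343, and against the rest of the gene between 0.0781 and 0.108, for differences of -0.84 to -0.78. The replicate block called all 4 of these differences, with limma adjusted p-values from 0.0040 to 0.0158. All 4 junctions, together with the MRPS10 junction and the fifth LRPPRC junction, lost the call against 0 without replicate 1 and when libraries were centred on all guides.

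The table sorts junctions into categories (common, partial_unique, single_unique and fully_unique), whose definitions are not given in the sources used here. Of the tested member junctions 7 of 76 common ones, 3 of 28 single_unique, 1 of 13 partial_unique and 0 of 7 fully_unique were called lower at Day 21, with medians of -0.16, -0.12, 0.01 and 0.03. Over all junctions of every category 25.3% were called lower, and the share within each category is not given here. The categories were not compared by a test, and 7 junctions are too few to show a difference. Limma's unadjusted p was under 0.05 for 17 of the 124, all lower, and for 0 of the 7 fully_unique junctions. The share over all junctions at that p is not given here. Only 7 genes held common junctions together with junctions of a partial_unique or fully_unique kind. Their common junctions minus the others differed by -0.22 to 0.65, and the sign was shared by the replicates in GFM1, MRPL42 and MRPS12 and opposite in MRPL23, MRPS18A, MRPS18C and MTIF2. These differences are given as a description, with no test.

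At Day 21 limma called 37 of the 944 guides lower, or 3.92%, and 0 higher, beside 11.1% of all guides called lower and 0.218% called higher, and beside 10 of 963 non-targeting guides, or 1.04%. Of the 1992 guides of non-essential control genes 54 were called lower, or 2.71%, and 5 higher. By gene, TOMM22 had 9 of the 37, DNM1L 7, LRPPRC 6, PMPCA 4, PMPCB 3 and GFM1 2, and TWNK, MRPL18, MRPL39, MRPL54, MRPS10 and MRPS30 had 1 each. The 452 mitoribosome guides gave 5, or 1.11%, and the 416 guides of the 11 genes typed essential gave 34, or 8.17%. Over all scored genes typed essential 16.0% of guides were called lower. The type may rest on the same values, so these counts by type are no separate evidence. The 37 calls ranged in mean from -6.62 to -2.45, and at an unadjusted p under 0.05 limma gave 74 of the 944 guides lower and 13 higher. The share over all guides at that p is not given here. At least 1 replicate of 12 of the 37 called guides was at an implied number of 1, where the fold change is only an upper bound on the level left. There were 2 guides called lower at Day 7 and 20 at Day 14, beside 2.1% and 7.96% of all guides. With the replicate block 141 member guides were called at Day 21, 96 lower and 45 higher, beside 23.4% of all guides.

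MRPS30, MRPL18, MRPL39 and TWNK, each with 1 called guide, show how far 1 guide can stand from its neighbours. In MRPS30 guide 3 of the second junction, chr5:44811154-44811914, stood at -0.90 and -1.09 at Day 7, -3.00 and -3.17 at Day 14 and -5.15 and -4.99 at Day 21, from implied Day 0 numbers of 185 and 116 to 5 and 4. The mean over the 8 guides of that junction was -1.60 and -0.02. In MRPL18 guide 8 stood at -3.65 and -2.15 and guide 1 at 0.70 and 0.65. In MRPL39 the lowest was guide 8 of the last junction, at -2.69 and -3.04, and the highest was guide 5 of the third junction, at 1.18 and 3.02. TWNK guide 2 stood at -1.62 and -7.05, the second of these at an implied number of 1, and TWNK guide 3 at 0.46 and 1.84.

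At a log2 FC of -1 or lower at Day 21 were 24.2% of member guides in replicate 1 and 21.7% in replicate 2, against 17.2% and 16.4% of non-targeting guides and 33.8% and 31.5% of guides to scored genes. Below 0 in both replicates were 29.3% of the 944, against 25.8% of the non-targeting guides. The median non-targeting guide lay at -0.04 and 0.00 at Day 21, and the values were read without a shift. Gene and junction values are means over guides, so that median does not settle where their 0 lies. With libraries centred on the non-targeting guides limma still called 2 of the 31 genes at Day 21. Over all genes that centring took the share called from 21.4% to 16.4%, in either direction.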

How the data were processed

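The deposited table holds, per the file headers, a log2 fold change for each guide, day and replicate. The submitters' processing notes name cutadapt 3.5, Bowtie 1.1.2 and hg38; scaling and pseudocount are not given in the sources used here. The deposited GeCKO score is 1 value per gene and was used as given. Guide values were averaged over genes and junctions with at least 3 guides, without centring. Each day was tested against 0 with limma 3.58.1 (R 4.3.3), fitted on all genes, junctions or guides with Benjamini-Hochberg adjustment and a threshold of 0.05. Junctions were also tested against the mean of the other junctions of their gene, and Day 21 against Day 7 within replicates. Scripts were tested on simulated data. The replicate numbers pair the libraries, since a replicate shares its Day 0 library: over guides, deviations from the day mean correlated at 0.41 to 0.65 between days. Junction positions were compared with gene spans of RefSeq GRCh38.p14, in which all 32 symbols matched.

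Full statistics were given for member genes called lower (at most 10) or higher (at most 3) at Day 21, the lowest and highest gene of each role (mitoribosome genes split by symbol), and genes with a junction that differs from its rest; guides were named for the 6 genes with the lowest means (lowest and highest guide), and further guides of TOMM22, LRPPRC and MRPS30, junctions of other genes and genes of the separate list were chosen after their values were seen. The members and lists were chosen with earlier results of these data known. Alternatives tried were 2 centrings, robust moderation, the median over guides, no minimum or another minimum of guides, an implied Day 0 number of at least 50, all days in 1 fit, a replicate block and leaving out each replicate (with all days in 1 fit). Of the 8 libraries, the 2 from Day 0 enter only as the reference, and intervals from 2 replicates are wide.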

Additional observations from a re-analysis of the deposited data

Results flagged for a closer look

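The difference between Day 21 and Day 7 passed limma's test for 2 of the 31 genes, beside 23.5% of all genes called lower. For TOMM22 it was -2.21 on the log2 scale (SE 0.22, limma adjusted p 2.3e-05), with -2.01 and -2.40 in the replicates, from a Day 7 mean of -0.52 to a Day 21 mean of -2.73. For LRPPRC it was -0.73 (SE 0.22, limma adjusted p 0.0270), with -0.83 and -0.63 in the replicates, from -0.13 to -0.86. Both genes were lower at Day 21 in 2 of 2 replicates. Of the 394 tested non-essential control genes 38 were called lower in this difference, or 9.64%, and 13 higher, beside 6.45% of the 31. With 1 replicate left out at Day 21, in a fit of all days that gives the lone library the spread of the others, the change was -2.42 or -1.99 for TOMM22 and -0.68 or -0.77 for LRPPRC, and limma's adjusted p was between 0.0546 and 0.0823.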

How the results depend on the processing

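TOMM22 and LRPPRC kept their direction at Day 21 under every alternative run. Fits without 1 replicate change 2 things, since they also take all days in 1 fit and give the lone library the spread of the others. Their counts of calls are therefore left out of this section, and only their values are given. The number of member genes called at Day 21 was 2 (21.4% over all genes in either direction), and 6 with all days in 1 fit (41.9%), 10 with the replicate block (51.1%), 1 centred on all guides (5.15%), 0 with the median over guides (2.04%; limma, 3 at an unadjusted p under 0.05) and 4 to 5 without 1 replicate. At Day 14 the number called was 3 (22.8% over all genes), and 1 centred on all guides (14.2%) or with the median (7.28%). For Day 21 minus Day 7 it was 2 (24.7% over all genes). It was 1 without guides under an implied Day 0 number of 50 (23.0%), centred on all guides (9.81%) or with the median (3.76%). Called junctions numbered 11 (26.2% over all), 20 with all days in 1 fit (32.1%) and 31 with the block (44.1%). They numbered 7 centred on all guides (21.8%) and 5 with the median (18.9%). Junctions differing from their gene numbered 8 (23.8%), and 16 with all days in 1 fit (30.4%), 32 with the block (47.2%), 2 with the median (9.03%) and 12 to 15 without 1 replicate. Called guides numbered 37 (11.3%), and 141 with the block (23.4%). The median over member genes was -0.17; it was 0.14 centred on all guides, -0.0035 with the median over guides, and -0.20 to -0.0050 without 1 replicate.

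Centring on all guides turned the sign of GFM1 (0.045), MTIF2 (0.22), DNM1L (0.0096) and MRPS10 (0.18); MRPS10 was 0.015 with the median, and MRPS30 ranged from -1.24 without replicate 2 to 0.070 without replicate 1. The replicate block changed no call at Day 7 and none of Day 21 minus Day 7, and added TIMM29 at Day 14. Fits of all days, with or without the block, carry the limit given above, that in earlier work a spread shared over days gave too many small p-values. The cause of these changes was not tested. A gene with few guides, a Day 0 library shared by 3 days and implied numbers near 1 at Day 21 limit the precision.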
